A study of Homo sapiens with 12 samples.

Results

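The 45 genes described here encode proteins that find, process or tolerate damaged and mismatched DNA, and they were chosen by name from 9 repair pathways. Earlier results of these data were known when they were chosen. A gene was measured where a probe set of the array carried its symbol and no other. When several did, the one brightest on average across the 12 arrays stood for it. This gave 41 genes, out of 19775 genes with such a probe set. BRCA2, FANCA, FANCD2 and PMS2 were not analysed here. Of the 41 genes, 40 lay in the brighter 0.5 of all genes and were tested among 9888, and CLSPN was too dim.

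The arrays were Affymetrix U133 Plus 2.0 chips hybridised with total RNA from Pfeiffer and OCI-Ly7, human diffuse large B-cell lymphoma lines of the germinal centre B-cell type. There were 4 groups of 3 arrays, namely Pfeiffer with an siRNA against BCL6, Pfeiffer with a non-target control, OCI-Ly7 with the BCL6 siRNA and OCI-Ly7 with a non-target control. All cells had been transfected transiently and were grown in IMDM with 10% FBS, and RNA was taken after 48 h. The Pfeiffer control is an shRNA by title and an siRNA by description, and which it was is unclear. Whether the 3 arrays of a group stand for 3 separate transfections is not stated, so p-values refer to the spread among these arrays alone and that spread may be technical.

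BCL6 is a transcriptional repressor that germinal centre B cells need while their immunoglobulin genes are being mutated and switched. Those cells break and mutate their own DNA through the deaminase AID, and BCL6 is known to dampen genes that sense DNA damage. Uracil left by AID is read by base excision and mismatch repair factors, and switch breaks are closed mainly by non-homologous end joining. Homologous recombination and the Fanconi anaemia pathway repair breaks and crosslinks met during replication, so many of their genes are transcribed in proliferating cells.

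All values are log2(signal + 16), a scale on which the change of a dim gene is understated, and a change is BCL6 siRNA minus control unless stated otherwise. BCL6 itself changed by -0.96 in Pfeiffer (limma adjusted p = 5.31e-07) and by -0.42 in OCI-Ly7 (limma adjusted p = 0.00731). All 3 of its probe sets passed in Pfeiffer, whereas in OCI-Ly7 1 of them stood at -0.17 and did not (limma adjusted p = 0.4007 over probe sets). Of 7 B cell markers 6 were measured, and all 6 reached the level needed for testing. Their mean level lay between 10.95 and 11.05 on Pfeiffer siRNA arrays and between 11.50 and 11.56 on Pfeiffer controls. The corresponding ranges were 12.90 to 12.99 on OCI-Ly7 siRNA arrays and 12.72 to 12.75 on OCI-Ly7 controls. None of the 6 measured myeloid markers reached the level needed for testing, and of 7 T and NK cell markers only CD8A did, with a mean signal of 12151 in Pfeiffer controls and 9.46 in OCI-Ly7 controls. Of 7 epithelial and stromal markers 4 were tested, of which 3 were higher and 1, PECAM1, was lower in Pfeiffer than in OCI-Ly7 controls. EPCAM, an epithelial marker, had a mean signal of 17047 in Pfeiffer controls and 16.1 in OCI-Ly7 controls. CD8A and EPCAM are not markers of B cells, and the identity of the line on the Pfeiffer arrays, on which all Pfeiffer values rest, was not tested beyond these markers. In bulk RNA, fewer cells of a type and less RNA per cell cannot be told apart. Median array signals ran from 71.4 to 85, and no array was left out.

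In Pfeiffer, BCL6 siRNA was followed by higher levels of BLM, RAD54L, XRCC2, FANCI, EXO1, MDC1, BRIP1 and BARD1 and by lower levels of XRCC4, ERCC1 and APEX1. Of the 40 repair genes tested 8 rose and 3 fell (limma, adjusted p under 0.05 over all genes), which is 27.5%, beside 16.2% of all genes tested. In the upward direction the background was 7.9% and in the downward one 8.31%. The median change over the 40 genes was 0.10, beside 0.00014 over all genes tested. All siRNA arrays lay above all controls for 15 genes (16% of all genes tested) and below them for 6 (16.9% of all genes), where 33% of all genes were separate in either direction. The count of called genes was 7 without Pfeiffer control replicate 1, and 7 as well with a fit to the Pfeiffer arrays alone. BLM, RAD54L, FANCI, EXO1, XRCC4 and ERCC1 were called in Pfeiffer under every alternative run. BLM, RAD54L and EXO1 have only 1 probe set each. The alternatives that average or omit probe sets therefore could not alter their levels and say nothing of their stability.

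**Figure D1:**
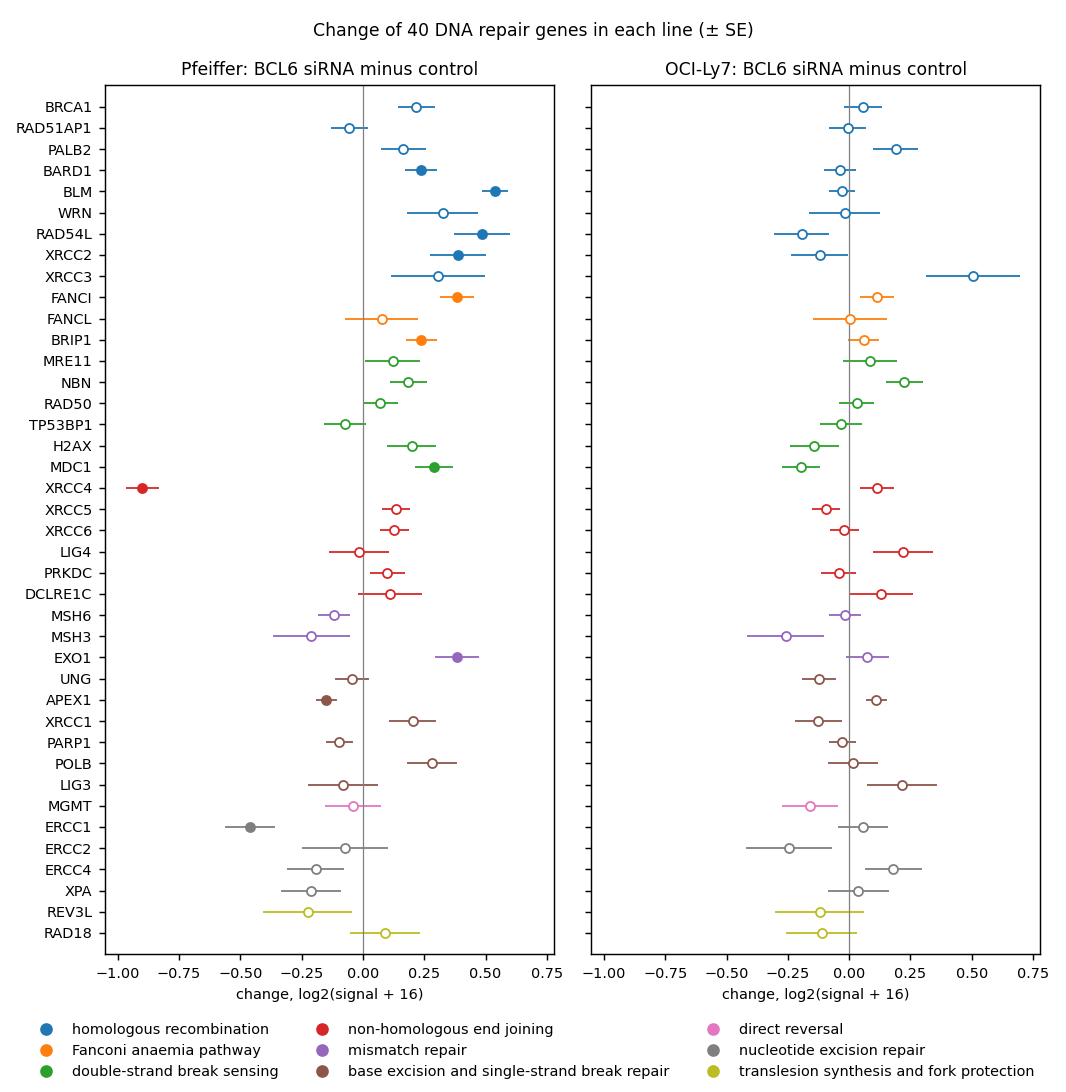
Change of the 40 tested repair genes after BCL6 siRNA, Pfeiffer on the left and OCI-Ly7 on the right, on the log2(signal + 16) scale. Points are limma estimates, bars are ± SE, filled points passed an adjusted p of 0.05, and colours mark pathways. There are 11 filled points for Pfeiffer, 8 to the right of 0 and 3 to the left, and 0 for OCI-Ly7.

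Homologous recombination copies the sister chromatid to mend a break. Of its 9 tested genes 4 rose in Pfeiffer and 0 fell (44.4%, beside 16.2% of all genes tested), with a median change of 0.30. BLM, a RecQ helicase that unwinds recombination intermediates, read 13.60, 13.70 and 13.58 on Pfeiffer siRNA arrays against 13.10, 13.04 and 13.13 on Pfeiffer controls. The siRNA arrays all lay above the controls, and the rise of 0.54 ± 0.05 (SE) was 1.45-fold (limma adjusted p = 6.13e-06).

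RAD54L, a translocase that helps strand invasion, read 9.57, 9.40 and 9.86 on Pfeiffer siRNA arrays against 9.09, 9.11 and 9.19 on controls. The groups did not overlap, although the siRNA arrays were spread over a wider range, and the rise was 0.48 ± 0.11 (SE; limma adjusted p = 0.00879). XRCC2, a homologous recombination factor measured by 1 probe set of the _x_at type, read 9.32, 9.14 and 9.20 with siRNA against 8.82, 8.72 and 8.95 in controls. All siRNA arrays were again higher, by 0.39 ± 0.12 (SE; limma adjusted p = 0.033), a call that ended without Pfeiffer control replicate 1 or 2 or siRNA replicate 1 or 3, and when dim genes were kept (adjusted p up to 0.115). BARD1, the partner of BRCA1 in its ubiquitin ligase, read 10.42, 10.42 and 10.41 with siRNA against 10.17, 10.31 and 10.07 in controls.

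BARD1 rose by 0.23 ± 0.07 (SE; limma adjusted p = 0.0234), but its 2 other probe sets stood at 0.02 and 0.07 and neither passed. Its call ended without Pfeiffer control replicate 1 or 3 or siRNA replicate 1 or 2, and in a fit to the Pfeiffer arrays alone. Averaging its probe sets gave 0.11 (limma adjusted p = 0.423). The other 5 recombination genes were not called in Pfeiffer. BRCA1, the tumour suppressor that promotes end resection, came closest, at 0.22 ± 0.08 (SE; limma adjusted p = 0.0641). Its second probe set stood at 0.41, also short of the threshold. WRN, another RecQ helicase, stood at 0.33, XRCC3 at 0.30, PALB2, the bridge between BRCA1 and BRCA2, at 0.16 and RAD51AP1 at -0.06.

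**Figure D2:**
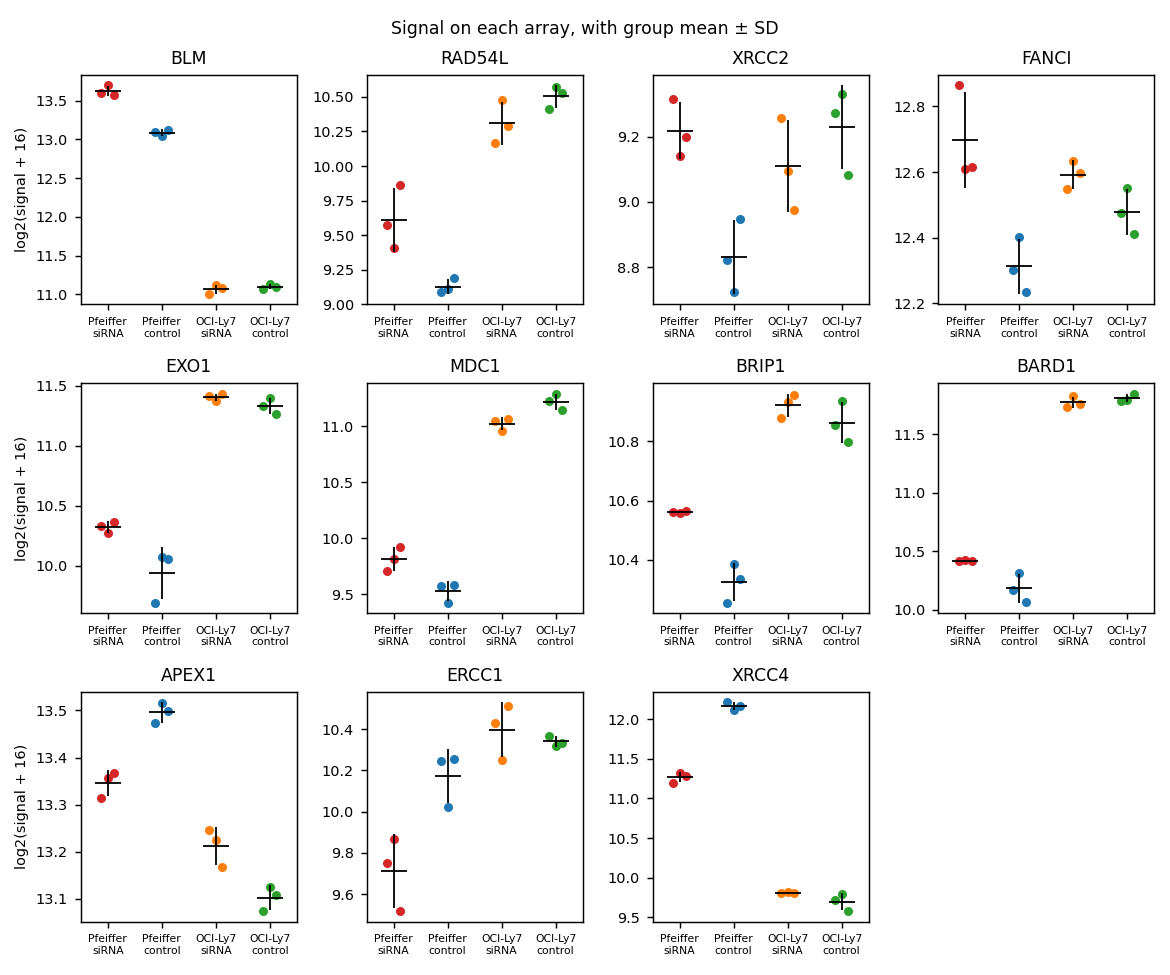
Level of the 11 repair genes called in Pfeiffer on each of the 12 arrays, as log2(signal + 16), with BCL6 siRNA left of control in each line. Points are arrays, and the black marks are the mean ± SD of 3 arrays. In Pfeiffer the groups are separate in every panel, while the OCI-Ly7 groups overlap in all panels but those of MDC1, XRCC4 and APEX1, and the axis of each panel has its own range.

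The Fanconi anaemia pathway unhooks crosslinks between DNA strands. Of its 3 tested genes 2 rose in Pfeiffer (66.7%, beside 16.2% of all genes tested). FANCI, which with FANCD2 forms the clamp that is ubiquitinated at a crosslink, read 12.87, 12.61 and 12.61 on siRNA arrays against 12.30, 12.40 and 12.24 on controls. Its groups were separate, and the rise of 0.38 ± 0.07 (SE; limma adjusted p = 0.00162) was matched by the other 2 probe sets, at 0.34 and 0.44, which both passed. BRIP1, a helicase that binds BRCA1, read 10.56, 10.56 and 10.57 with siRNA against 10.26, 10.38 and 10.34 in controls. The siRNA arrays were higher by 0.24 ± 0.06 (SE; limma adjusted p = 0.0197), a call that ended without Pfeiffer control replicate 1 or 3, in a fit to the Pfeiffer arrays alone and on averaging the 2 probe sets (adjusted p up to 0.0837). FANCL, the ubiquitin ligase of the pathway, stood at 0.08 and was not called.

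Since 7 of the 8 genes that rose have a promoter sequence in the RefSeq table (GRCh38.p14), as do 3 of the 3 that fell, promoters were searched for motifs on both strands over the 250 bases before each listed start. CCAAT, the box bound by NF-Y and common in cell cycle promoters, was found for 4 of the 7 genes that rose, 2 of the 3 that fell and 14 of the 24 uncalled tested genes that have a sequence, beside 37% of 27305 genes. E2F-type sites, searched as TTTCCCGC, TTTGGCGC, TTTCGCGC and TTTGCCGC, were found for 0 of the 7 and 0 of the 3, for 3 of those 24 and for 3.4% of all genes. Only exact letters counted, so a site with any changed letter was missed. With a share of 3.4%, 0 among so few genes does not show that they lack such sites. The BCL6 core TTCCTAGAA was found for 0 of the 39 repair genes with a sequence and for 0.396% of all genes. Matches to different E2F-type letters can overlap, as they do in MSH3. A gene with several listed starts counts if any of them has a match. The promoters below are those of 3 of the 4 genes that rose and have a CCAAT box, and of XRCC4, which fell most and lacks it. They are read on the strand of the gene, with CCAAT or its reverse complement ATTGG in capitals. The 3 that rose were not chosen by size of change, so the promoters shown do not stand for the genes that rose or fell. BLM lies at chr15:90717096-90717345 (plus strand), RAD54L at chr1:46247438-46247687 (plus strand, the first of 2 listed starts), BRIP1 at chr17:61863529-61863778 (minus strand) and XRCC4 at chr5:83077297-83077546 (plus strand).
BLM: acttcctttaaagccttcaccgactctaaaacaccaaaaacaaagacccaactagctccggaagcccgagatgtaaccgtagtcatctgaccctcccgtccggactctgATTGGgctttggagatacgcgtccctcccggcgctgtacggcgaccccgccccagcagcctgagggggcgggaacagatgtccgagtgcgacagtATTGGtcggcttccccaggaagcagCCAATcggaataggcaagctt
RAD54L: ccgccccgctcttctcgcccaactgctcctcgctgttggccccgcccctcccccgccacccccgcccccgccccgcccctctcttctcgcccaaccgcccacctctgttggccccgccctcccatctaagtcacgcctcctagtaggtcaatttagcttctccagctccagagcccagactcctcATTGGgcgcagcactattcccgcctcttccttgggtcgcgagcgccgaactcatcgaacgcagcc
BRIP1: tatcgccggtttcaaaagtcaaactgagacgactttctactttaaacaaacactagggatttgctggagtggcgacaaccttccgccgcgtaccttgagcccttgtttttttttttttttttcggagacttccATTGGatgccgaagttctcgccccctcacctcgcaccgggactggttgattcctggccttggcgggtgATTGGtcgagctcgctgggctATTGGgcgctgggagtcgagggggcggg
XRCC4: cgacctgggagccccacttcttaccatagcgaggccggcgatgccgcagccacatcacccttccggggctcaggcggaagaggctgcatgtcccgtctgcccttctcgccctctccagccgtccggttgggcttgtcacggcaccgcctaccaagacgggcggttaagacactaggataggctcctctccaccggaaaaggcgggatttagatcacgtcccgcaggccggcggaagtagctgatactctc
BLM and BRIP1 have 3 such pentamers each within the window, RAD54L has 1 and XRCC4 has 0. A match is a run of letters and not a shown binding site.

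Among the 6 genes that sense double-strand breaks, 1 rose in Pfeiffer and 0 fell. That is 16.7%, close to the 16.2% called over all genes tested. MDC1, the scaffold that binds phosphorylated H2AX, read 9.71, 9.82 and 9.92 with siRNA against 9.58, 9.43 and 9.58 in controls. The siRNA arrays were all higher, by 0.29 ± 0.08 (SE; limma adjusted p = 0.0203). Its other probe set stood at -0.10. The call ended on averaging both (0.10; limma adjusted p = 0.61), in a fit to the Pfeiffer arrays alone and without Pfeiffer control replicate 2 or siRNA replicate 3. NBN, a subunit of the MRN complex that binds broken ends, was not called by its brightest probe set (0.19 ± 0.07 SE; limma adjusted p = 0.108). Tested over all probe sets, 2 of its other probe sets did pass, at 0.48 (limma adjusted p = 0.000415) and 0.35 (limma adjusted p = 0.0242). MRE11 stood at 0.12 and RAD50 at 0.07, the other subunits of that complex, H2AX at 0.20 and TP53BP1, which guards ends against resection, at -0.07.

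XRCC4 had the largest change of the 40 genes in Pfeiffer. It is the scaffold that holds DNA ligase IV during non-homologous end joining. Pfeiffer siRNA arrays read 11.20, 11.32 and 11.28, against 12.21, 12.12 and 12.17 on Pfeiffer controls, a wide gap between narrow groups. XRCC4 fell by 0.90 ± 0.07 (SE; limma adjusted p = 3.94e-07), and the level in siRNA cells was 0.536 of that in control cells on this scale. The 2 other probe sets bright enough for testing stood at -0.91 and -0.89 and both passed, and the one below that level stood at -0.998.

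The other end joining genes did not pass in Pfeiffer. XRCC5 and XRCC6, which encode the Ku proteins that cap a broken end, stood at 0.13 and 0.13, with siRNA arrays above controls in each case. The same held for 16% of all genes tested. PRKDC, the kinase that Ku recruits, stood at 0.10, DCLRE1C, the Artemis nuclease, at 0.11 and LIG4, the ligase itself, at -0.02. The 95% confidence interval for LIG4, -0.28 to 0.24, did not reach the change of its partner XRCC4.

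**Figure D3:**
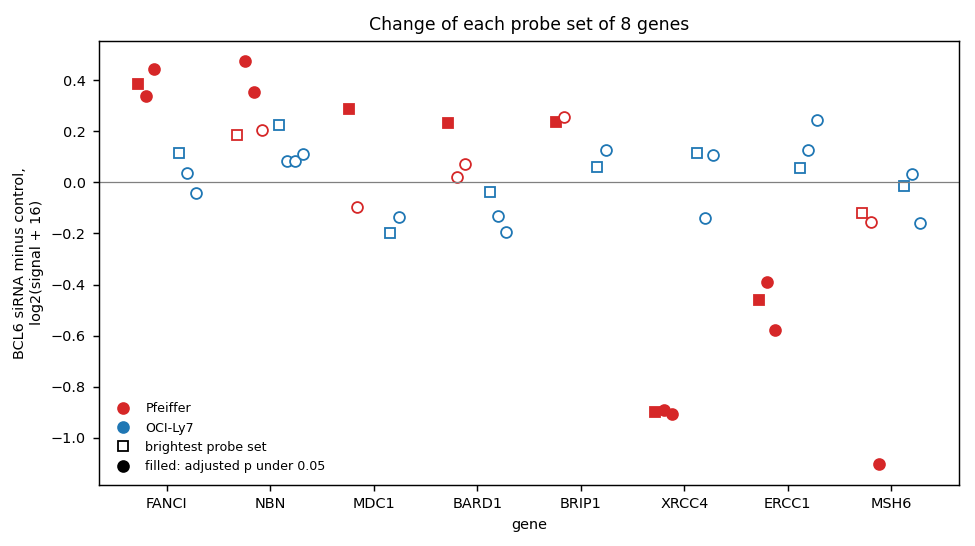
Change after BCL6 siRNA of each probe set bright enough for testing, for 8 repair genes, Pfeiffer in red to the left of OCI-Ly7 in blue. Squares are the brightest probe set of a gene, and filled symbols passed an adjusted p of 0.05 over all such probe sets. All 3 probe sets of XRCC4, of ERCC1 and of FANCI passed in Pfeiffer, 2 of 4 did for NBN, and those of MDC1 lay on both sides of 0.

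In mismatch repair, 1 of 3 tested genes rose in Pfeiffer (33.3%, beside 16.2% of all genes tested). EXO1, the exonuclease that removes the strand holding a mismatch and also resects breaks, read 10.33, 10.27 and 10.37 with siRNA against 9.69, 10.07 and 10.05 in controls. The siRNA arrays were all higher, by 0.38 ± 0.09 (SE; limma adjusted p = 0.00812), and control replicate 1 was the lowest array. MSH6, which recognises mismatches and AID lesions, stood at -0.12 ± 0.07 (SE; limma adjusted p = 0.25). Another MSH6 probe set passed at -1.10 (limma adjusted p = 0.0228 over probe sets), whereas one other stood at -0.16 and did not pass. MSH3, which recognises larger loops, stood at -0.21.

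Base excision and single-strand break repair removes single damaged bases, and of its 6 genes 1 fell in Pfeiffer. That is 16.7%, close to the 16.2% called over all genes tested. APEX1, the endonuclease that cuts at abasic sites, read 13.31, 13.36 and 13.37 with siRNA against 13.47, 13.52 and 13.50 in controls. The separation was complete but small, with a fall of 0.15 ± 0.04 (SE; limma adjusted p = 0.029). That call ended without Pfeiffer control replicate 1, 2 or 3 or siRNA replicate 1 or 2, without a filter on dim genes, without a trend in limma, in a fit to the Pfeiffer arrays alone and with a replicate block (adjusted p up to 0.0982). POLB, the polymerase that fills the gap, stood at 0.28 (limma adjusted p = 0.0741) and XRCC1, the scaffold of the last steps, at 0.20. UNG, which removes the uracil that AID makes, stood at -0.05 with an interval of -0.20 to 0.10, PARP1 at -0.10 and LIG3 at -0.08.

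Nucleotide excision repair cuts out bulky lesions. By their brightest probe sets all 4 of its tested genes had negative changes in Pfeiffer. Of these 1 passed (25%, beside 16.2% of all genes tested). Of all 9888 genes tested 4940 were negative. ERCC1, the partner of the ERCC4 nuclease, read 9.75, 9.87 and 9.52 with siRNA against 10.24, 10.02 and 10.26 in controls. The fall of 0.46 ± 0.10 (SE; limma adjusted p = 0.00604) left 0.726 of the control level, and the other 2 probe sets stood at -0.39 and -0.58 and passed as well. ERCC4 itself stood at -0.19 and XPA, which verifies the lesion, at -0.21, in both cases with all siRNA arrays below all controls but without a call. For 16.9% of all genes tested the siRNA arrays lay below the controls. ERCC2, a helicase of TFIIH, stood at -0.07. The directions of ERCC2 and ERCC4 depended on the probe set. The other ERCC2 probe set stood at 0.30 and did not pass. The other ERCC4 probe set, too dim for testing, stood at 0.49.

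The remaining genes were not called in Pfeiffer. MGMT, which reverses alkylated guanine directly, stood at -0.04. REV3L, the catalytic subunit of translesion polymerase zeta, stood at -0.23, and RAD18, the ligase that marks PCNA for translesion synthesis, at 0.09. CLSPN, a mediator of the checkpoint at stalled forks, was outside the test, at 6.85, 6.95 and 7.27 with siRNA against 7.02, 7.15 and 6.27 in Pfeiffer controls, which overlap.

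In OCI-Ly7 none of the 40 repair genes was called after BCL6 siRNA (limma, adjusted p of 0.141 or more), where 2.68% of all genes tested were (1.69% higher and 0.991% lower). At an unadjusted p under 0.05, 3 were higher and 1 lower, where 937 of all 9888 genes were higher and 595 lower, so these 4 say nothing particular of repair genes. The adjusted count stayed at 0 under each alternative run. The median change was -0.011, beside 0.015 over all genes tested. The siRNA arrays were all above the controls for 6 genes (13.4% of all genes) and all below for 4 (9.42%), where 22.9% of all genes were separate. NBN read 11.45, 11.43 and 11.66 on OCI-Ly7 siRNA arrays against 11.27, 11.34 and 11.26 on OCI-Ly7 controls, a change of 0.23 ± 0.07 (SE; limma adjusted p = 0.141). MDC1 read 11.04, 10.96 and 11.06 against 11.22, 11.29 and 11.14, with all siRNA arrays lower (-0.20; limma adjusted p = 0.237). XRCC3, a dim recombination gene, stood at 0.50 with an SE of 0.19 (limma adjusted p = 0.218). In OCI-Ly7 the 95% confidence intervals of BLM (-0.14 to 0.08), XRCC4 (-0.03 to 0.26) and ERCC1 (-0.16 to 0.27) did not reach the changes measured for these genes in Pfeiffer.

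The difference between the lines was tested directly, as the Pfeiffer change minus the OCI-Ly7 change. Of the 40 genes 3 had a higher change in Pfeiffer and 3 a lower one, which is 15%, beside 8.8% of all genes tested (3.74% higher and 5.06% lower). Those higher were RAD54L (0.68 ± 0.16 SE; limma adjusted p = 0.0154), BLM (0.57 ± 0.07 SE; limma adjusted p = 0.000257) and MDC1 (0.49 ± 0.11 SE; limma adjusted p = 0.0123). Those lower were XRCC4 (-1.01 ± 0.10 SE; limma adjusted p = 1.12e-05), ERCC1 (-0.52 ± 0.14 SE; limma adjusted p = 0.0354) and APEX1 (-0.26 ± 0.06 SE; limma adjusted p = 0.0157). The ERCC1 difference lost its call in 11 of 22 alternatives, 8 of them with 1 array left out, and the APEX1 difference in 2 of 21. For XRCC2 (limma adjusted p = 0.0685), BARD1 (0.0836), FANCI (0.109), EXO1 (0.145) and BRIP1 (0.256) which were called in Pfeiffer, the test of the difference did not pass. Of the 40 changes 12 were positive in both lines and 9 negative in both, while 12 were positive in Pfeiffer alone and 7 in OCI-Ly7 alone. The depth of the BCL6 fall also differed between the lines, by -0.54 (limma adjusted p = 0.00496), and its part in these differences was not tested.

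Replication genes were higher as well. Of 28 genes of S phase and replication 16 rose in Pfeiffer and 0 fell, with a median change of 0.20. Of 8 proliferation genes 6 rose and 0 fell. Over all genes tested 7.9% rose in Pfeiffer and 8.31% fell. In OCI-Ly7 0 of the 28 and 0 of the 8 were called, where only 2.68% of all genes tested were. The mean level of the 28 genes was 11.91 to 11.99 on Pfeiffer siRNA arrays against 11.70 to 11.76 on Pfeiffer controls. Over the same arrays the 9 recombination genes averaged 10.41 to 10.50 with siRNA and 10.13 to 10.18 in controls. On OCI-Ly7 arrays these genes averaged 10.37 to 10.44 with siRNA and 10.33 to 10.46 in controls, which overlap. B cell markers moved the other way in Pfeiffer, where 5 of the 6 fell, beside 8.31% of all genes tested. In OCI-Ly7 2 of the 6 markers rose and 0 fell (33.3%, beside 2.68% of all genes tested). The Pfeiffer change was the lower one for all 6 by the test of the difference, beside 5.06% of all genes tested. The part of replication or of B cell identity in the repair gene changes was not tested.

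A further 76 repair genes were listed by pathway, with earlier results of these data known. Of these, 65 were tested, and 11 rose and 2 fell in Pfeiffer (20%, beside 16.2% of all genes tested). In OCI-Ly7 3 of the 65 rose and 1 fell (6.15%, beside 2.68%). Over the calls of this list after siRNA and for the difference, 109 of 539 values under the alternatives lost the threshold. Of 20 other recombination and Fanconi genes 6 rose and 0 fell, led by RAD54B, a paralogue of RAD54L (0.82; limma adjusted p = 0.00219), TOP3A, the topoisomerase that acts with BLM (0.78; limma adjusted p = 0.00648), and FANCG (0.35; limma adjusted p = 0.00786). TOP3A reached the test through OCI-Ly7, since its Pfeiffer means of 7.97 with siRNA and 7.19 in controls average below the level of 7.91 needed. Its call ended on averaging its probe sets (0.31) and without _s_at and _x_at probe sets (0.31). Of the 6 that rose, only RAD54B and FANCG kept their Pfeiffer calls under every alternative. Both have 1 probe set, so averaging or omitting probe sets could not alter their levels. POLH, the translesion polymerase that writes mutations at A:T pairs in germinal centre B cells, rose by 0.79 (limma adjusted p = 6.46e-05). Its Pfeiffer change exceeded that in OCI-Ly7 by 0.86 (limma adjusted p = 0.00121).

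Among 13 other nucleotide excision genes 2 rose and 1 fell in Pfeiffer (23.1%, beside 16.2% of all genes tested). ERCC8 rose by 0.54 (limma adjusted p = 0.000658) and GTF2H3 by 0.27 (limma adjusted p = 0.0262), while CETN2 fell by 0.30 (limma adjusted p = 0.00827). The GTF2H3 call ended without Pfeiffer control replicate 1, 2 or 3 or siRNA replicate 1 or 2, on averaging its probe sets and without _s_at and _x_at ones. In OCI-Ly7 3 of these 13 rose and 0 fell (23.1%, beside 2.68% of all genes tested). They were DDB2, a sensor of ultraviolet damage and p53 target (0.56; limma adjusted p = 0.00155), ERCC8 (0.48; limma adjusted p = 0.0102) and GTF2H1, a TFIIH subunit (0.35; limma adjusted p = 0.0224). DDB2 stood at 0.03 in Pfeiffer, and the difference between the lines was -0.53 (limma adjusted p = 0.0093). DDB2 in OCI-Ly7 and CETN2 in Pfeiffer kept their calls under every alternative, whereas ERCC8 lost its call in both lines on averaging its probe sets, and in OCI-Ly7 also without siRNA replicate 1 or in a fit to that line alone. GTF2H1 lost its call without OCI-Ly7 control replicate 2 or 3 or siRNA replicate 1 or 2, on averaging its probe sets and with a replicate block. ALKBH2, a dioxygenase that reverses alkylation, was the 1 gene of this list called lower in both lines, at -0.20 in Pfeiffer (limma adjusted p = 0.0354) and -0.26 in OCI-Ly7 (limma adjusted p = 0.0322). Both calls ended without a filter on dim genes and with a replicate block. In Pfeiffer the call also ended in a fit to that line alone and without Pfeiffer control replicate 1 or 3, siRNA replicate 1 or 2 or OCI-Ly7 control replicate 1, and in OCI-Ly7 on leaving out any 1 of its 6 arrays.

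The control arrays of the lines differed in most repair genes, as they did in most genes. Of the 40 genes 14 were higher and 19 lower in Pfeiffer than in OCI-Ly7 controls, 82.5% beside 79.6% of all genes tested (42.5% higher and 37.1% lower). The control arrays did not overlap for 14 genes higher in Pfeiffer (44% of all genes) and 21 lower (38.4%), where 82.4% of all genes were separate. XRCC4 was 2.47 ± 0.07 higher in Pfeiffer (SE; limma adjusted p = 7.3e-14) and BLM 1.99 ± 0.05 higher (limma adjusted p = 4.86e-14), followed by PALB2 (1.48) and XPA (1.21). XRCC4 thus remained higher on Pfeiffer siRNA arrays (11.20 to 11.32) than on any OCI-Ly7 array (9.58 to 9.82). Lower in Pfeiffer were MSH6 (-1.75), MDC1 (-1.69), RAD51AP1 (-1.66), BARD1 (-1.62), LIG4 (-1.46), DCLRE1C (-1.40), EXO1 (-1.39) and RAD54L (-1.38), each with a limma adjusted p of 1e-07 or less.

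The Pfeiffer rises of MDC1, BARD1, EXO1 and RAD54L were smaller than that gap. EXO1 averaged 10.32 ± 0.05 in Pfeiffer siRNA cells and 9.94 ± 0.21 in Pfeiffer controls (SD, n = 3 each), with 11.33 ± 0.07 in OCI-Ly7 controls. The Fanconi genes were all lower in Pfeiffer (3 of 3), and 3 of the 4 nucleotide excision genes were higher. Over all genes tested 37.1% were lower and 42.5% higher, so counts this small say little of a pathway. The FANCI call ended without OCI-Ly7 control replicate 1 or 2, OCI-Ly7 siRNA replicate 3 or Pfeiffer control replicate 1 or 3, when dim genes were kept and without a trend in limma (adjusted p up to 0.15). Those of ERCC2 and ERCC4 ended on averaging their probe sets (limma adjusted p = 0.0513 and 0.147). MSH3, MRE11, REV3L, XRCC5, NBN, ERCC1 and XRCC3 did not pass between the controls of the lines.

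**Figure D4:**
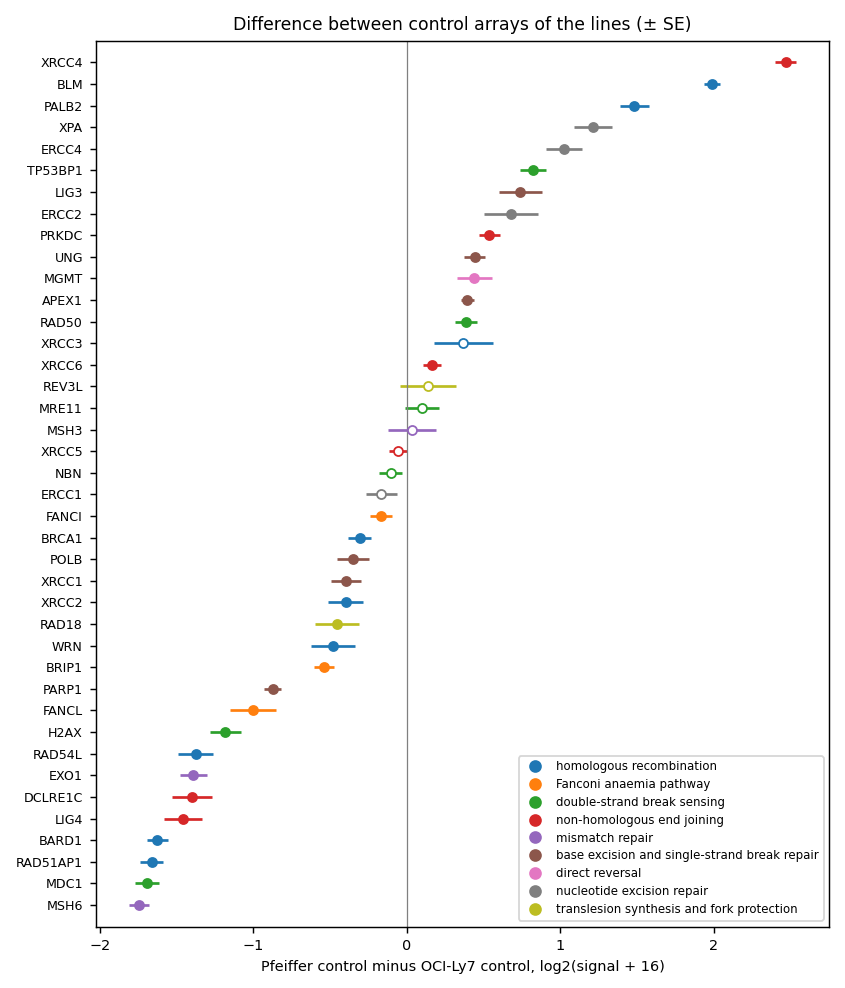
Difference between Pfeiffer control and OCI-Ly7 control arrays for the 40 tested repair genes, on the log2(signal + 16) scale, ordered by size. Points are limma estimates with ± SE, filled where the adjusted p was under 0.05, and colours mark pathways. XRCC4 and BLM stand highest in Pfeiffer, and MSH6 lowest.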

How the data were processed

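The deposited table holds log2 values of 54675 probe sets on 12 arrays. Per the submitters' processing notes the authors used MAS5 and affy, with no version given. On the linear scale every array has a 2% trimmed mean of 500, so the deposited log2 values were already scaled, and nothing further was normalized. GEO's platform annotation named the probe sets, and a RefSeq gene table changed 0 of those symbols. Of the probe sets 41091 carried 1 gene symbol and 1801 several. Genes were tested if the higher of their line means was in the upper 0.5, a level of 7.91 or more. Tests were limma fits (lmFit and eBayes with a trend) on all arrays with 4 group means and 8 residual degrees of freedom. Two-sided p-values had a Benjamini-Hochberg adjustment across the 9888 genes. An exact permutation of 3 arrays against 3 cannot go below p = 0.1. The members and lists were chosen with earlier results of these data known. Every repair gene may be named, and of other genes only BCL6, genes of fixed repair and marker lists, up to 3 of each with the lowest p. EPCAM and CD8A were singled out after their values were seen, and so was the test of each probe set. On simulated data for the Pfeiffer comparison the test found 52% of genes changed by 0.4 and 80.4% of those changed by 0.7. On data for the OCI-Ly7 comparison it found 50% and 86%. Of the calls 6.17% were false for Pfeiffer and 4.49% for OCI-Ly7, a single share over all sizes simulated and not one for changes of 0.4. Array signals carry no read depth, so the number of arrays limits the precision. R 4.3.3, limma 3.58.1, Python 3.11.15, pandas 2.3.3 and matplotlib 3.10.9 were used.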

Additional observations from a re-analysis of the deposited data

Results flagged for a closer look

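The following genes had a change in Pfeiffer that differed from that in OCI-Ly7 by limma's test of the difference, given as Pfeiffer change minus OCI-Ly7 change. XRCC4 differed by -1.01, ERCC1 by -0.52, APEX1 by -0.26, MDC1 by 0.49, BLM by 0.57 and RAD54L by 0.68. Among these, XRCC4, BLM and RAD54L passed under every alternative run. BLM and RAD54L have 1 probe set each, so averaging or omitting probe sets could not alter their levels. APEX1 did not pass without a trend or with a replicate block (adjusted p up to 0.0545), and MDC1 did not on averaging its probe sets (0.26; limma adjusted p = 0.316). ERCC1 did not pass without any of 8 arrays: OCI-Ly7 control replicates 1, 2 and 3, OCI-Ly7 siRNA replicates 1 and 3, Pfeiffer control replicates 1 and 3 and Pfeiffer siRNA replicate 3. Nor did it without a filter on dim genes, without a trend or with a replicate block, and its adjusted p reached 0.0911.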

How the results depend on the processing

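Processing alternatives covered quantile normalization, pseudocounts of 1 and 64, and no filter or a stricter filter on dim genes. Others were the mean of a gene's probe sets and the omission of all _s_at and _x_at probe sets. Further ones were a replicate block, array weights, limma without a trend and separate fits per line. Testing each probe set on its own was added after seeing the data. Of the 11 repair genes called in Pfeiffer, XRCC2, APEX1 and MDC1 have only _s_at or _x_at probe sets and could not be tested without them. Total counts of called repair genes stayed within 1.5 times of those reported, apart from 7 in Pfeiffer with separate fits per line, where the residual degrees of freedom are fewer. By direction, the processing alternatives gave 5 to 10 higher and 2 to 4 lower in Pfeiffer, 2 to 5 higher and 1 to 3 lower for the difference, and 9 to 14 higher and 15 to 23 lower between controls. On leaving out 1 array the counts ran from 7 to 11 in Pfeiffer, 0 to 0 in OCI-Ly7, 5 to 7 for the difference and 31 to 34 between controls. With the replicate block the counts were 12 in Pfeiffer, 0 in OCI-Ly7 and 4 for the difference. Same-numbered arrays of a line correlated at -0.0802 to 0.083 in their deviations, so the numbers were not taken to pair the samples. Of 458 values of called repair genes under processing alternatives 25 lost the threshold and 1 turned: XRCC6 between controls stood at -0.34 with the mean of its probe sets; the cause was not tested. Of 600 values with 1 array left out 33 lost the threshold. These values pool 11 calls in Pfeiffer, 6 for the difference and 33 between controls, so most concern the controls. In Pfeiffer the APEX1 call held in 13 of 22 alternatives, XRCC2 in 16 of 21 and BARD1 in 17 of 23. There MDC1 held in 18 of 22 and BRIP1 in 19 of 23, and the other called genes held in all. Over all genes the processing alternatives gave 133 to 397 calls in OCI-Ly7 (265 as reported) and leaving out 1 array 101 to 337, and averaging probe sets gave 1027 in Pfeiffer (1603 as reported) and 534 for the difference (870 as reported). Without the filter on dim genes 9 of 41 were called in Pfeiffer, XRCC2 and APEX1 no longer, beside 1292 of all 19775 genes (6.53%).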
